A study of Oryza sativa Japonica Group and Oryza sativa with 4 samples.

Results

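The genes described here encode enzymes of photorespiration in rice, and they were taken by their identifiers from the table of all genes. They are 5 of 37849 genes, namely the glycolate oxidases Os03g0786100 and Os07g0152900, the P protein gene of glycine decarboxylase Os01g0711400, the serine hydroxymethyltransferase (SHMT) gene Os03g0738400 and the hydroxypyruvate reductase gene Os02g0101500. Leaf RNA was sequenced from 21-day-old seedlings of the japonica cultivar Ilpum, which is susceptible to the green rice leafhopper (GRH), and of a near-isogenic line (NIL) that carries the resistance locus Grh1. Each line was sampled without insects (the control) and after 48 h with second instar nymphs (GRH), which makes 4 conditions, and every plant was of the same age. NIL came from a cross of the indica donor Shingwang with Ilpum, and only 1 such line was used. The paper describes its background as that of Ilpum except at the Grh1 locus. Any introgressed segments other than Grh1 are not described in the labels. The paper speaks of duplicate samples, but 1 set of values per condition was used here, and whether it stands for 1 of the samples or for both together is not stated. It is called a library below, and its values have no replicate check and no p-value, so every difference is a difference between libraries.

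Photorespiration recycles the phosphoglycolate that Rubisco makes when it fixes oxygen in place of CO2. In peroxisomes glycolate oxidase turns glycolate into glyoxylate and releases hydrogen peroxide, which catalase removes, and aminotransferases convert glyoxylate to glycine. In mitochondria the glycine decarboxylase complex and SHMT make serine from glycine with release of CO2 and ammonia, and back in the peroxisome serine becomes hydroxypyruvate, which hydroxypyruvate reductase turns into glycerate for return to the chloroplast. In leaves of C3 plants such as rice these enzymes are abundant in the light.

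The libraries held 2119765 reads without and 894661 with GRH in Ilpum, and 5037081 without and 1170099 with GRH in NIL. The reads are estimates that were derived from coverage, and intervals given below are 95% intervals for counting error only. Of 25 leaf marker genes (Rubisco small subunit and chlorophyll a/b-binding proteins), 15 to 19 had reads in each library, and of 9 root marker genes 0 had reads in every library except Ilpum GRH, where 1 gene had 3.60 FPKM. The leaf markers summed to 31454 FPKM without and 17506 with GRH in Ilpum, and 23661 without and 7053 with GRH in NIL. The sum was thus lower with GRH in both lines, and its part in the differences of the photorespiration genes was not tested.

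All 5 genes were among the abundant transcripts of the leaf and were lower in the GRH library than in the control library of both lines. FPKM values are fragment numbers scaled to transcript length and library size, so levels can be compared between genes of different length. The 5 genes summed to 2250 FPKM without and 1030 with GRH in Ilpum, and 1946 without and 1105 with GRH in NIL. They took 0.368%, 0.173%, 0.329% and 0.180% of all reads in the same order of libraries. In these bulk leaf samples, fewer cells of a type and less RNA per cell cannot be told apart.

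Os03g0786100, a glycolate oxidase gene on chromosome 3 (IRGSP-1.0, 32628790 to 32632431, plus strand), had the highest level of the 5 genes in every library. Its level was 1181 FPKM (3980 reads) without and 422 FPKM (637 reads) with GRH in Ilpum, and 986 FPKM (7868 reads) without and 547 FPKM (1019 reads) with GRH in NIL. Both control libraries were above both GRH libraries, and the Ilpum GRH library was the lowest. It ranked 53 among all genes without and 186 with GRH in Ilpum, and 51 without and 113 with GRH in NIL.

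Os07g0152900 (chromosome 7, 2797691 to 2801343, plus strand) is a second glycolate oxidase gene. It had 332 FPKM (1255 reads) without and 170 FPKM (277 reads) with GRH in Ilpum, and 292 FPKM (2419 reads) without and 186 FPKM (347 reads) with GRH in NIL. Here too both controls lay above both GRH libraries. Os03g0786100 was 3.56 times as high as Os07g0152900 without and 2.49 times with GRH in Ilpum, and 3.38 times without and 2.94 times with GRH in NIL on the FPKM scale.

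Os01g0711400 (chromosome 1, 29563666 to 29566585, plus strand) encodes the P protein, the subunit of glycine decarboxylase that releases CO2 from glycine. The gene table describes it as similar to a victorin binding protein, a name from oat for the P protein. Its level was 165 FPKM (434 reads) without and 82.4 FPKM (94 reads) with GRH in Ilpum, and 176 FPKM (1093 reads) without and 97.4 FPKM (142 reads) with GRH in NIL. By FPKM it was the lowest of the 5 genes in every library, with both controls above both GRH libraries. Over shared exons, described below, Os03g0738400 was lower than Os01g0711400 in NIL GRH (88.4 against 97.4).

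Os03g0738400 (chromosome 3, 30299613 to 30304241, plus strand) encodes SHMT, which joins glycine and a one-carbon unit into serine. Its description reads similar to a cytosolic SHMT, while the SHMT step of photorespiration is mitochondrial. Where the product of this gene acts was not tested. The gene had 297 FPKM (1070 reads) without and 221 FPKM (319 reads) with GRH in Ilpum, and 285 FPKM (2402 reads) without and 119 FPKM (229 reads) with GRH in NIL. The controls were close to each other, and the GRH libraries differed from each other by a larger ratio than for any of the other 4 genes.

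Os02g0101500 (chromosome 2, 78483 to 82952, minus strand) is annotated as the peroxisomal, NADH-dependent hydroxypyruvate reductase. Its level was 274 FPKM (1064 reads) without and 135 FPKM (222 reads) with GRH in Ilpum, and 207 FPKM (2779 reads) without and 155 FPKM (375 reads) with GRH in NIL. By FPKM the order of the 5 genes was the same in both controls, from Os03g0786100 through Os07g0152900, Os03g0738400 and Os02g0101500 to Os01g0711400. In Ilpum GRH Os03g0738400 stood above Os07g0152900, and in NIL GRH it stood below Os02g0101500. The intervals of Os07g0152900 and Os03g0738400 overlapped in NIL control (281 to 304 and 274 to 296 FPKM) and in Ilpum control (314 to 351 and 280 to 315 FPKM). Those of Os03g0738400 and Os02g0101500 also overlapped in Ilpum control (280 to 315 and 258 to 291 FPKM). Neighbours with overlapping intervals cannot be ordered in those libraries at this depth. In Ilpum GRH the intervals of Os07g0152900 and Os03g0738400 did not overlap (150 to 191 and 198 to 247 FPKM). But counting intervals leave out how reads are assigned to transcripts. Over the exons shared by transcripts, described below, Os07g0152900 was the higher in Ilpum GRH (231 against 202). On that scale Os02g0101500 stood above Os03g0738400 in Ilpum control (336 against 205) and NIL control (372 against 217). The order thus depends on the measure.

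**Figure D1:**
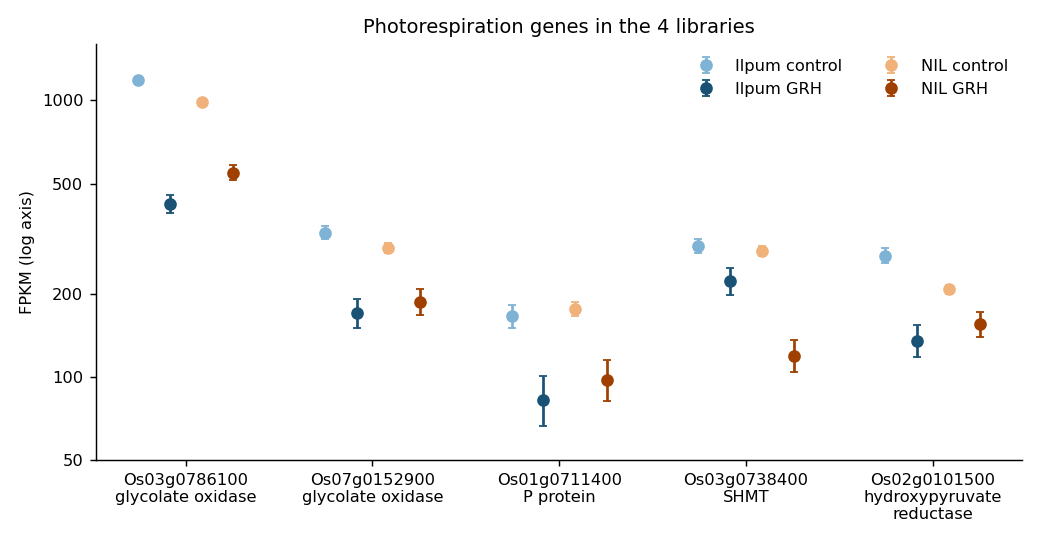
FPKM (log axis) of the 5 photorespiration genes in the 4 libraries, with 1 point per library and bars for the 95% counting interval. For each gene the GRH point lies below the control point of the same line, from 1181 to 422 FPKM for Os03g0786100 in Ilpum and from 285 to 119 FPKM for Os03g0738400 in NIL.

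In Ilpum, the median difference of the 5 genes with GRH was -0.997 on the log2 scale of FPKM with 1 added, against -0.10 over the 18575 genes that averaged 1 FPKM or more (the compared genes) and -0.08 over the 1143 abundant genes, which averaged 100 FPKM or more. All 5 genes were lower, as were 53.1% of the 18575 genes and 54.2% of the 1143 abundant genes. At least 2-fold lower were 2 of the 5, Os03g0786100 and Os02g0101500, beside a background of 28.6% of the 18575 genes and 15.2% of the abundant ones. With so few genes this count is not set apart from the background of all genes. The count was 4 of 5 with quantile normalization and with TMM-scaled counts, 3 of 5 over shared exons or with a smaller or no pseudocount, and 1 of 5 (Os03g0786100) when differences were centred on the median of the compared genes.

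Os03g0786100 differed most in Ilpum, by -1.48 (interval -1.61 to -1.36), or 2.80 times higher in the control library. Os02g0101500 differed by -1.02 (-1.24 to -0.81). Os01g0711400 differed by -0.997 (-1.34 to -0.68) and fell just short of the 2-fold threshold. These genes stand at the early peroxisomal step of the cycle, at its late peroxisomal step and at its mitochondrial step. Their intervals exclude 0. Os07g0152900 differed by -0.97 (-1.16 to -0.78), close to the P protein gene. Os03g0738400 had the smallest difference in Ilpum, -0.42 (-0.61 to -0.24), where its first exons and its shared exons, described below, differed from each other.

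In NIL, the median difference of the 5 genes with GRH was -0.85, against -0.06 over all 18575 genes and 0.21 over the abundant ones. All 5 were lower, as were 52.3% of the 18575 genes but 37% of the abundant ones. On the FPKM scale Os03g0738400 alone was at least 2-fold lower, beside a background of 20.9% of the 18575 genes and 8.31% of the abundant ones. With TMM-scaled counts 3 of the 5 were, Os03g0738400 (-1.46), Os03g0786100 (-1.02) and Os01g0711400 (-1.01), and with the most abundant transcript 2 were.

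Os03g0738400 differed by -1.25 in NIL (-1.46 to -1.06), the largest difference of the 5 genes there. Both Os03g0786100 and Os01g0711400 differed by -0.85, with intervals of -0.95 to -0.76 and -1.12 to -0.60. Os07g0152900 differed by -0.65 (-0.81 to -0.49). Os02g0101500 had the smallest difference by FPKM, -0.42 (-0.58 to -0.27), but differed by -0.96 with TMM-scaled counts, where Os07g0152900 was the smallest (-0.87). SHMT was the gene that differed least in Ilpum and most in NIL, except that with the most abundant transcript Os07g0152900 differed most in NIL (-3.33).

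**Figure D2:**
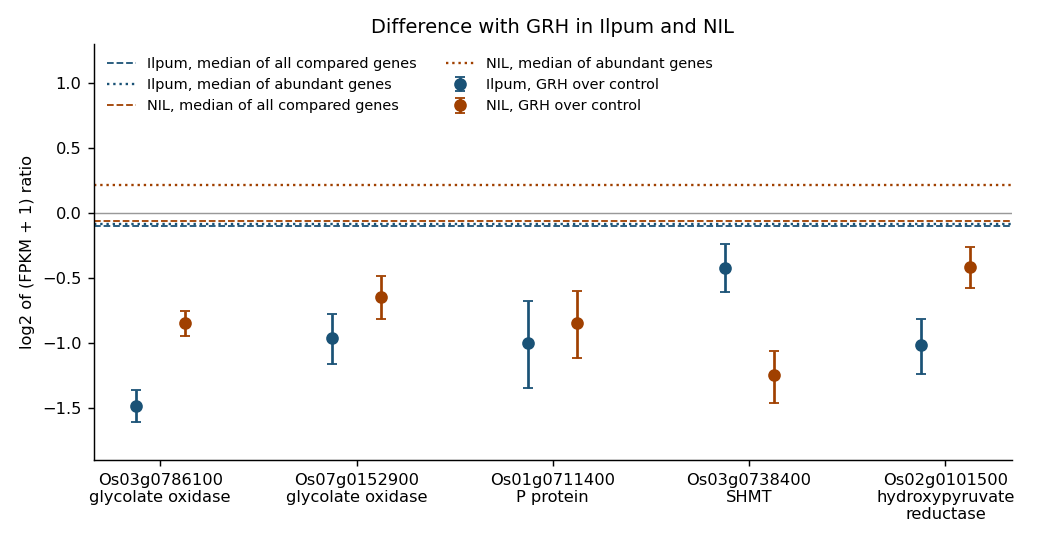
Difference between the GRH and the control library (log2 of the ratio of FPKM with 1 added) for each gene in Ilpum and NIL, with bars for the 95% counting interval. Dashed lines mark the median of all 18575 compared genes and dotted lines that of the 1143 abundant genes. All 10 points lie below the 4 lines, and Os03g0738400 is the single gene whose NIL point (-1.25) is below its Ilpum point (-0.42).

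The difference between the lines in the response was set out as NIL minus Ilpum, with an interval by normal approximation that covers counting error only. It was 0.63 (0.48 to 0.79) for Os03g0786100, 0.32 (0.07 to 0.57) for Os07g0152900 and 0.60 (0.34 to 0.86) for Os02g0101500, that is, a smaller difference with GRH in NIL than in Ilpum. The value for Os02g0101500 was 0.15 with TMM-scaled counts, and that for Os07g0152900 turned to -2.25 with the most abundant transcript. If both reads of each pair were counted and the reads are halved, the interval for Os07g0152900 includes 0 (-0.03 to 0.67). For Os03g0738400 it was -0.83 (-1.09 to -0.56), the opposite direction. For Os01g0711400 it was 0.15, and the interval of -0.26 to 0.56 includes 0, so a line difference was not detectable at this depth. No variation between plants enters these intervals, and whether the lines differ beyond it was not tested.

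Without GRH, NIL and Ilpum were close for the 5 genes, with a median of -0.18 (NIL over Ilpum) against -0.02 for all compared genes, and a median of 0.066 with TMM factors and of 0.082 over shared exons. By FPKM none of the 5 reached 2-fold. The background was 14% of the compared genes at least 2-fold lower and 14.1% at least 2-fold higher in NIL. Among the abundant ones it was 9.01% and 7.26%. With the most abundant transcript Os07g0152900 (-1.21) and Os02g0101500 (-2.38) were past 2-fold. The largest difference by FPKM was that of Os02g0101500, -0.40 (-0.51 to -0.30), though it turned to 0.28 with counts scaled by TMM factors. Next came Os03g0786100 with -0.26 (-0.32 to -0.20) and Os07g0152900 with -0.18 (-0.28 to -0.09). The intervals of Os01g0711400 (0.09, -0.07 to 0.25) and Os03g0738400 (-0.06, -0.17 to 0.04) include 0.

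With GRH, 4 of the 5 genes were higher in NIL than in Ilpum and Os03g0738400 was lower, as were 46.6% of the compared genes and 46.9% of the abundant ones. The median was 0.19, against 0.00 for all compared genes. By FPKM again none reached 2-fold. The background was 23.7% lower and 25% higher among compared genes, and 12.7% and 19.5% among abundant ones. Os03g0786100 differed by 0.38 (0.23 to 0.52). Os03g0738400 differed by -0.89 (-1.14 to -0.64), or 1.85 times higher in Ilpum. The other 3 had intervals by FPKM that include 0, with 0.14 for Os07g0152900, 0.24 for Os01g0711400 and 0.19 for Os02g0101500. Over shared exons, described below, Os02g0101500 differed by 0.45 (0.17 to 0.75), an interval that excludes 0. On that scale Os03g0738400 differed by -1.19 (-1.54 to -0.85), past 2-fold. With the most abundant transcript Os03g0738400 (-1.11), Os03g0786100 (3.00) and Os07g0152900 (-3.46) were past 2-fold. These line comparisons use the same libraries as the responses above, so they are no separate evidence of the pattern.

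The gene values are sums over annotated transcripts, and for 4 of the 5 genes the share assigned to each transcript differed widely between libraries. Os03g0786100 has 2 transcripts of 1586 and 1524 nt, which share 10 of 11 exons exactly and differ by 62 bases of the first exon. The longer one, Os03t0786100-01, received 1.90% of the FPKM of the gene without and 84.1% with GRH in Ilpum, and 0.613% without and 0.540% with GRH in NIL. The Ilpum GRH library thus stood alone in assigning most of the gene to the longer form. In Ilpum the longer transcript differed by 3.92 (log2, GRH over control) and the shorter one by -4.09, while the gene as a whole differed by -1.48. Over the 10 shared exons, coverage put on the FPKM scale was 1212 without and 446 with GRH in Ilpum, and 1012 without and 562 with GRH in NIL, and it was lower with GRH in 10 of 10 exons in both lines.

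Os07g0152900 has 4 annotated transcripts. Os07t0152900-01 received 89.6% of the gene without and 82.9% with GRH in Ilpum, and 43.9% without and 6.37% with GRH in NIL. Os07t0152900-03 received 1.37%, 5.01%, 32.9% and 89.6% in the same order. Os07t0152900-04 received 9.03%, 12.1%, 22.2% and 3.87%, and Os07t0152900-02 never more than 1.05%. The main transcript was therefore the first in both Ilpum libraries and the third in NIL GRH. Whether the alleles of the lines differ at this gene was not tested. Over 9 shared exons its level was 505 without and 231 with GRH in Ilpum, and 389 without and 231 with GRH in NIL, lower with GRH in 9 of 9 exons in both lines, and level between the lines with GRH (0.00, -0.29 to 0.30).

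Os01g0711400 has 1 transcript of 1187 nt with 8 exons. Coverage was lower with GRH in 7 of its 8 exons in Ilpum and in 8 of 8 in NIL.

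Os02g0101500 has a transcript of 1662 nt and one of 2836 nt, and the latter ends in an exon of 1622 nt. This long form, Os02t0101500-02, received 7.89% of the FPKM of the gene without and 3.95% with GRH in Ilpum, and 77.0% without and 27.4% with GRH in NIL. Its last exon was covered at 9.0% of the mean over 10 shared exons without and 5.13% with GRH in Ilpum, and 16.0% without and 6.74% with GRH in NIL, so most reads of the gene in NIL control lay outside the long exon. FPKM divides by length, and reads given to a longer transcript count for less. Over the shared exons the level was 336 without and 167 with GRH in Ilpum, and 372 without and 230 with GRH in NIL. On that scale NIL control was above Ilpum control (0.14, 0.02 to 0.27), where the FPKM of the gene had it below, and the difference with GRH in Ilpum was -1.003 (-1.27 to -0.76) and that in NIL -0.69 (-0.88 to -0.52). The difference between the responses then became 0.31, with an interval that reaches close to 0 (0.01 to 0.61). Intervals over shared exons take the reads as counted, and halved reads were not tried there.

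**Figure D3:**
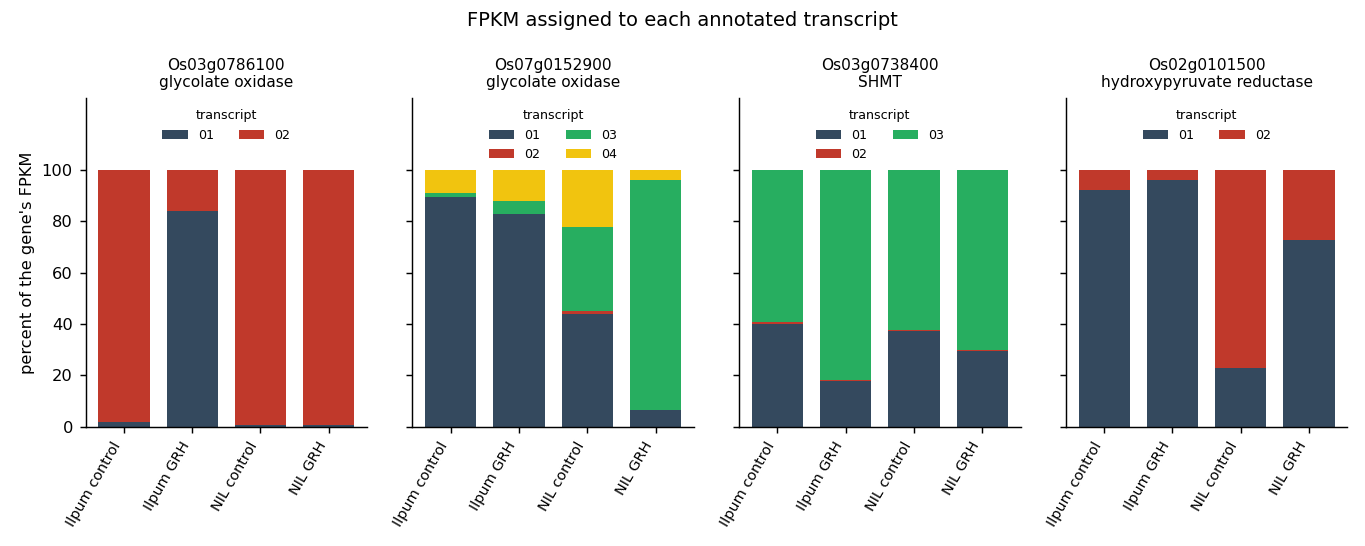
Percent of the FPKM of each gene that was assigned to each of its annotated transcripts, 1 bar per library, for the 4 genes with more than 1 transcript. Os03t0786100-01 has 84.1% of its gene in Ilpum GRH and under 2% in the other libraries, and Os02t0101500-02 has 77.0% of its gene in NIL control.

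The SHMT gene Os03g0738400 differed along its length. Its longest transcript, Os03t0738400-01 (1973 nt), begins with 5 exons (467 nt in all) that Os03t0738400-03 (1402 nt) lacks, and 9 exons are shared by both. The third transcript, Os03t0738400-02 (792 nt), received under 1% of the gene in every library. Os03t0738400-03 received 59.2% of the FPKM of the gene without and 81.9% with GRH in Ilpum, and 62.3% without and 70.0% with GRH in NIL.

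Over the 5 first exons the level was 410 without and 147 with GRH in Ilpum, and 335 without and 121 with GRH in NIL. Over these exons Ilpum differed with GRH by -1.48 (-1.87 to -1.10) and NIL by -1.46 (-1.84 to -1.11), so a line difference was not detectable there (NIL minus Ilpum 0.02, -0.50 to 0.54). Over the 9 shared exons the level was 205 without and 202 with GRH in Ilpum, and 217 without and 88.4 with GRH in NIL. There Ilpum differed with GRH by -0.02 (-0.27 to 0.22), with 5 exons lower and 4 higher, and NIL by -1.29 (-1.59 to -1.02), with 9 of 9 exons lower. NIL minus Ilpum was -1.27 (-1.64 to -0.90) over the shared exons. The line difference in the SHMT response was thus measured over the shared exons and was not detectable over the first 5. The split into first and shared exons was chosen after the exon values had been seen.

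Within the shared part the NIL GRH library was uneven. The shared exons numbered 7 to 10 in transcript order had 45.0, 36.1, 41.6 and 33.2 on the FPKM scale in NIL GRH, against 237, 247, 270 and 156 in NIL control. The last exon had 153 in NIL GRH and 215 in NIL control. The 9 shared exons held 111 reads in NIL GRH and 199 in Ilpum GRH, so single exons rest on few reads. The coverage of the first 5 exons was 2.00 times that of the shared exons without and 0.725 times with GRH in Ilpum, and 1.54 times without and 1.37 times with GRH in NIL, and Ilpum GRH stood alone with lower coverage over the first exons.

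**Figure D4:**
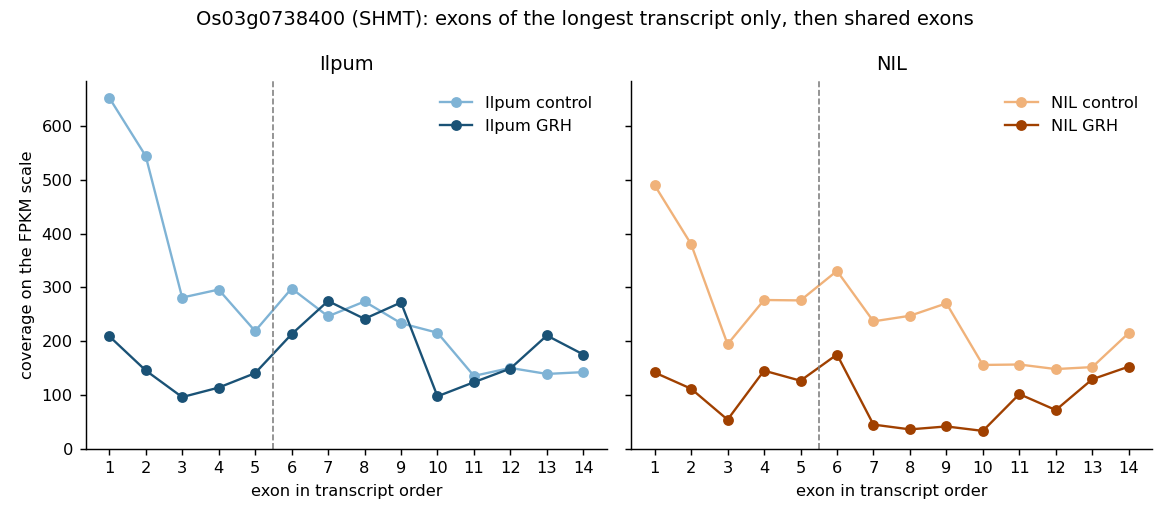
Coverage of Os03g0738400 on the FPKM scale for the 5 exons found in the longest transcript only (left of the dashed line) and the 9 shared exons, in transcript order, in Ilpum and in NIL. In Ilpum the GRH line crosses the control line over the shared exons (202 against 205 over all 9, with single exons from -1.15 to 0.60 on the log2 scale), while in NIL the GRH line lies below the control in every exon.

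The share of each gene within its enzyme family does not depend on the scaling of libraries. Os03g0786100 made up 73.4% of the FPKM of 6 glycolate oxidase genes without and 64.1% with GRH in Ilpum, and 70.8% without and 67.0% with GRH in NIL. Os07g0152900 made up 20.6%, 25.8%, 21.0% and 22.8% in the same order. The main gene thus had a smaller share with GRH in both lines, and the second gene a larger share in Ilpum. In NIL the intervals of the second gene by share of reads overlapped (20.9% to 22.5% without and 20.8% to 25.1% with GRH). Os01g0711400 made up 61.1%, 56.4%, 64.1% and 66.1% of the FPKM of 2 P protein genes. Its intervals by share of reads overlapped in Ilpum (48.2% to 55.0% without and 42.4% to 57.1% with GRH). They also overlapped, though narrowly, in NIL (52.6% to 57.0% and 56.7% to 69.7%). Overlap of separate intervals does not show that shares are equal, and differences in share were not tested. Os02g0101500 made up 81.3%, 77.7%, 82.1% and 79.3% of the FPKM of 2 hydroxypyruvate reductase genes. Its intervals by share of reads overlapped in Ilpum (82.7% to 86.8% without and 75.9% to 85.5% with GRH) but not in NIL (88.5% to 90.7% and 81.0% to 87.9%). The share of Os03g0738400 among 4 SHMT genes differed most between libraries, from 78.1% in Ilpum control to 57.7% in Ilpum GRH and from 78.5% in NIL control to 47.7% in NIL GRH. A second SHMT gene, Os11g0455800, was higher with GRH in both lines, with 58.3 FPKM without and 123 with GRH in Ilpum, and 52.9 without and 115 with GRH in NIL. The summed FPKM of the 4 SHMT genes was 381 without and 384 with GRH in Ilpum, against 363 and 250 in NIL.

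The rest of the pathway was taken from a list of 38 genes found by their descriptions, the 5 genes included, of which 34 averaged 1 FPKM or more. In Ilpum 10 of the 34 were at least 2-fold lower with GRH and 6 at least 2-fold higher, beside 28.6% and 20.4% of all compared genes. In NIL 9 were at least 2-fold lower and 3 higher, beside 20.9% and 14.7%. The 34 genes had medians of -0.64 (Ilpum) and -0.59 (NIL). In both lines 21 of the 34 were lower with GRH, or 61.8%, and 5 were at least 2-fold lower in both (14.7%), against 32.9% and 9.39% of all compared genes. These figures include the 5 genes, which were all lower in both lines. The other 29 genes alone had medians of -0.38 (Ilpum) and -0.53 (NIL). Of the 29, 16 were lower in both lines (55.2%) and 5 at least 2-fold lower in both (17.2%). At least 2-fold lower and higher were 8 and 6 of the 29 in Ilpum, and 8 and 3 in NIL. Genes of the Calvin cycle (10 compared) had medians of -0.33 (Ilpum) and -1.63 (NIL), and antenna genes (16 compared) of -0.77 and -1.80. The median of the 5 photorespiration genes lay below both of those medians in Ilpum (-0.997) and above both in NIL (-0.85), while single genes overlapped, those of the antenna in Ilpum lying between -2.51 and 2.85.

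Among other genes of the peroxisomal steps, Os08g0502700, described as similar to a serine-glyoxylate aminotransferase, the enzyme that makes hydroxypyruvate from serine, had 783 FPKM without and 194 with GRH in Ilpum, and 591 without and 156 with GRH in NIL. It differed by -2.01 in Ilpum and -1.91 in NIL, more than any of the 5 genes. Os05g0475400, described as an alanine:glyoxylate aminotransferase-like protein gene, had 203, 127, 380 and 547 FPKM in the same order of libraries, lower with GRH in Ilpum and higher in NIL. The remaining glycolate oxidase genes that averaged 10 FPKM or more, Os04g0623500 and Os08g0198700, differed by -0.17 and -0.25 in Ilpum and by -0.30 and -0.73 in NIL.

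Catalase removes the hydrogen peroxide that glycolate oxidase makes, and its 3 genes differed in direction. Os03g0131200 had 1184 FPKM without and 518 with GRH in Ilpum, and 775 without and 511 with GRH in NIL, lower with GRH in both lines. Os02g0115700 (CAT-A) had 1533, 1787, 641 and 857 FPKM, higher with GRH in both lines and higher in both Ilpum libraries than in both NIL libraries. Os06g0727200 (CAT-B) had 187, 144, 198 and 277 FPKM, lower with GRH in Ilpum and higher in NIL.

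In the glycine decarboxylase complex, the second P protein gene Os06g0611900 had 105, 63.8, 98.5 and 50.0 FPKM without and with GRH in Ilpum and then in NIL. The gene of the T protein, which hands on the one-carbon unit, Os04g0623800, had 84.5, 39.5, 55.4 and 18.4 FPKM. Both were lower with GRH in both lines, as was the P protein gene Os01g0711400. Of the 2 dihydrolipoyl dehydrogenase (L protein) genes above 10 FPKM, Os01g0337900 differed by -0.72 in Ilpum and -1.75 in NIL, and Os05g0156700 by 2.29 and 0.43, the latter on 12 to 79 reads. The H protein gene Os10g0516100, whose product carries the lipoyl arm of the complex, had 116 reads in Ilpum control, 30 in Ilpum GRH and 200 in NIL control, and was listed at 0 in NIL GRH. With a floor of 3 reads per library, it was at least 15.5-fold lower in NIL GRH than in NIL control in reads scaled to library size. Another H protein gene, Os02g0170100, was listed at 0 in Ilpum control and had 28, 42 and 6 reads in Ilpum GRH, NIL control and NIL GRH, at least 22.1-fold higher in Ilpum GRH than in Ilpum control. Whether the zeros come from the assignment of reads was not tested.

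Of the other SHMT genes, Os11g0455800 differed by 1.06 in Ilpum and 1.11 in NIL. Os12g0409000 had 25.2, 39.4, 25.1 and 15.1 FPKM without and with GRH in Ilpum and then in NIL, higher with GRH in Ilpum and lower in NIL. The cytosolic, NADPH-dependent hydroxypyruvate reductase gene Os01g0228600 differed by -0.69 in Ilpum and -0.16 in NIL, in both lines less than the peroxisomal gene Os02g0101500.

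Glutamine synthetase and glutamate synthase take up again the ammonia that glycine decarboxylase releases. The chloroplast glutamine synthetase gene Os04g0659100 had 320, 247, 279 and 186 FPKM, and differed by -0.37 in Ilpum and -0.59 in NIL. The ferredoxin-dependent glutamate synthase gene Os07g0658400 had 278, 118, 311 and 215 FPKM, and differed by -1.23 and -0.53.

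Malate dehydrogenase supplies the NADH that hydroxypyruvate reductase uses in peroxisomes. Os03g0773800 had 363, 240, 269 and 210 FPKM and was lower with GRH in both lines. Os12g0632700 had 35.6, 82.4, 209 and 172 FPKM, higher in both NIL libraries than in both Ilpum libraries. Of the dicarboxylate transporter genes of the chloroplast envelope, Os11g0432400 differed by -1.99 in Ilpum and -2.62 in NIL, and Os08g0481800 by -1.08 and -1.38. Os09g0469950 differed by 1.14 and 1.78, Os09g0470000 by 1.11 and 0.03, and Os12g0515400 by 0.20 and 0.09. The transporter genes rest on 4 to 144 reads in a library.

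**Figure D5:**
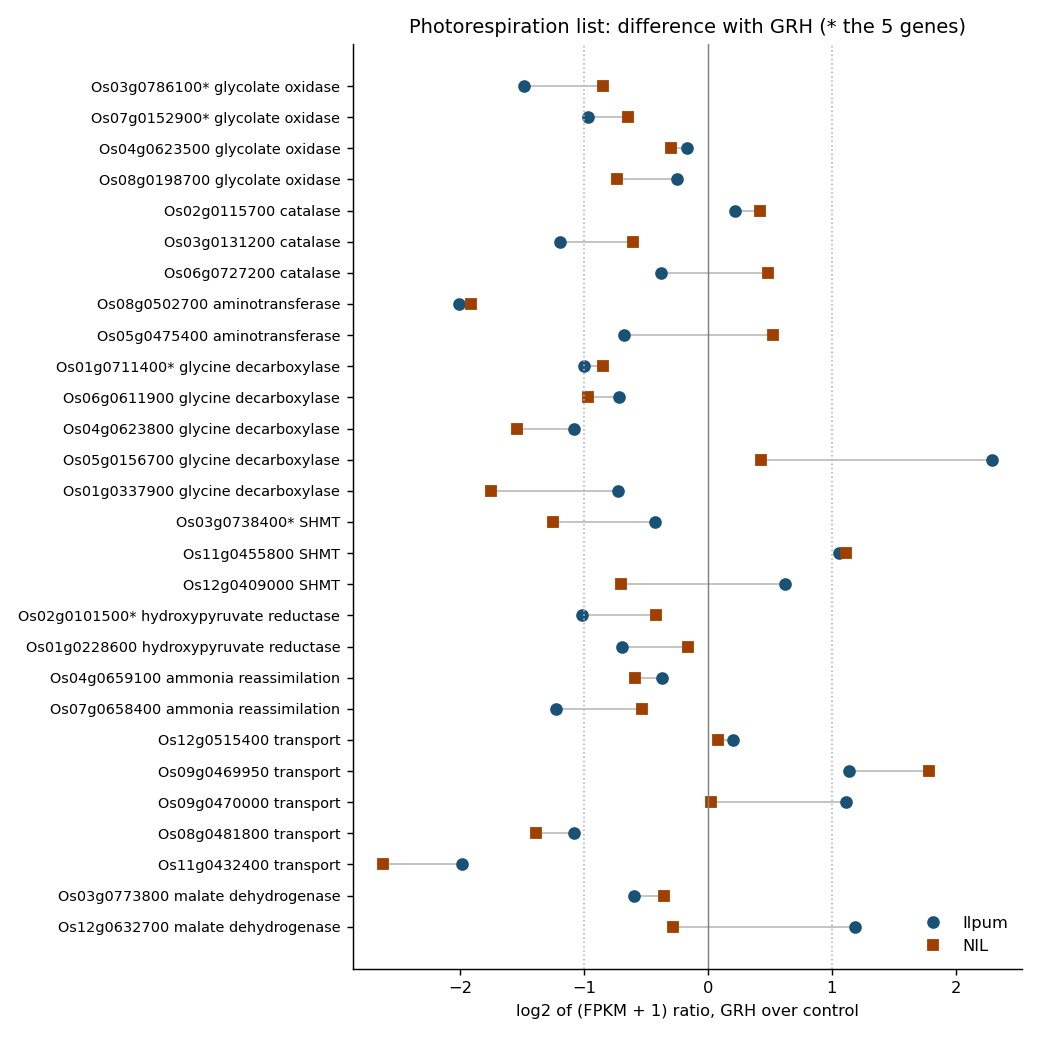
Difference with GRH (log2 of the ratio of FPKM with 1 added) in Ilpum (circles) and NIL (squares) for the 28 genes of the photorespiration list that averaged 10 FPKM or more and had reads in every library, ordered by step, with the 5 genes starred. Dotted lines mark 2-fold. Os08g0502700 lies at -2.01 and -1.91, and Os11g0455800 lies on the other side at 1.06 and 1.11.

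The genes whose profile over the 4 libraries was most like the mean profile of the 5 genes were sought among 9500 genes outside the list that averaged 10 FPKM or more, by the Euclidean distance of centred log2 values. They were Os03g0699600 (F-box domain, distance 0.064), Os03g0833900 (cytosine deaminase-like, 0.078), Os05g0533500 (serine acetyltransferase-like, 0.083), Os01g0934300 (flowering-time protein-like, 0.095) and Os02g0539600 (SANT domain, 0.097). Of the 5 genes themselves, Os07g0152900 was nearest to the mean profile (0.12) and Os03g0738400 farthest (0.64). There were 6 of the 9500 genes nearer than Os07g0152900 and 807 nearer than Os03g0738400, so the profile is not particular to photorespiration genes, and with 4 libraries a close match is a description only.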

How the data were processed

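The paper describes duplicate leaf samples per condition. The tables used here hold 1 set of values per condition, and whether samples were merged is not given in the sources used here, so no replicate spread was available. The deposited FPKM and TPM values were made by the authors with StringTie 1.3.4d from HISAT alignments to IRGSP-1.0 with its RAP-DB transcripts, counting by strand, after trimming with Trimmomatic. The HISAT version is not given in the sources used here. The deposited estimated count of a transcript equals coverage times length over read length, rounded up to whole reads, and matched this product within 1 read for 100% of transcripts. These counts were used as deposited and, being whole, were not rounded again. The coverage per exon, as deposited, is the mean number of reads per base. Both reads of a pair may enter the counts. For gene values, intervals with halved reads kept their side of 0 for the 5 genes in the 4 comparisons between libraries. That did not hold for the difference between the lines in the response of Os07g0152900. Halved reads were not tried for coverage over exons. The methods of the paper name Trinity and edgeR TMM, while the file headers name StringTie.

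Differences are log2 ratios of FPKM per gene after adding 1, over genes that averaged 1 FPKM or more, as all 5 genes did. Counting intervals are exact 95% binomial intervals of the ratio of reads. Differences between lines in a response use a normal approximation. The members, lists and tests were chosen with earlier results of these data known. The photorespiration list came from words in the gene descriptions, which matched 53 genes, of which 16 were removed on reading and 1 was added. The text names the 5 genes with their transcripts, each listed gene that averaged 10 FPKM or more, and the 5 genes with the nearest profile. No test between conditions was run. Alternatives were another pseudocount (0.1 or none), a filter at 5 FPKM, quantile normalization, TPM, TMM-scaled counts (edgeR 4.0.16), centring, the most abundant transcript and a 4-fold threshold. Coverage over shared exons was added after the data were seen. The counting intervals and log2 ratios with GRH were tested on simulated counts that had no spread between plants. Quantile normalization was checked on a small made-up example. The other steps were not tested in this way. The analysis used Python 3.11.15, numpy 2.4.6, pandas 2.3.3 and R 4.3.3. Sequences were not analysed here.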

Additional observations from a re-analysis of the deposited data

Results flagged for a closer look

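Of the 34 compared genes of the photorespiration list, 6 differed with GRH in opposite directions in the 2 lines. Of these, 2 (Os02g0170100 and Os07g0616500) were listed at 0 in a library, and the other 4 averaged 10 FPKM or more and had counting intervals that exclude 0 in both lines. Each rests on 1 set of values per condition, so the difference was not tested. The catalase gene Os06g0727200 differed by -0.38 in Ilpum and 0.48 in NIL, a NIL minus Ilpum difference of 0.86. The aminotransferase gene Os05g0475400 differed by -0.68 and 0.52, or 1.20. The SHMT gene Os12g0409000 differed by 0.62 and -0.70, or -1.33. The malate dehydrogenase gene Os12g0632700 differed by 1.19 and -0.28, or -1.47.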

How the results depend on the processing

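No paired analysis was possible because the tables hold 1 set of values per condition, and none could be left out. The median of the 5 genes lay between -1.12 and -0.89 in Ilpum and between -1.01 and -0.78 in NIL over 8 alternatives. Without GRH the median of NIL over Ilpum was -0.023 with quantile normalization, 0.066 with TMM-scaled counts and 0.082 over shared exons, against -0.18, and with GRH it was -0.21 for the most abundant transcript, against 0.19. For single genes, the most abundant transcript put Os03g0738400 at 0.044 in Ilpum and Os02g0101500 at 1.22 in NIL. Without GRH, Os03g0786100 stood at 0.019 with quantile normalization, and Os02g0101500 at 0.28 with TMM-scaled counts and 0.14 over shared exons. In NIL, TMM scaling moved the median of all compared genes from -0.06 to -0.17. A 4-fold threshold gave 2 listed genes lower and 2 higher in Ilpum, 3 and 1 in NIL, 0 and 2 between lines without GRH and 2 and 3 with GRH. Quantile normalization gave 1 listed gene at least 2-fold higher in NIL and 3 between lines with GRH, and no pseudocount gave 3 there. Shares of reads in place of FPKM were 71.8% for Os03g0786100 and 22.7% for Os07g0152900 in Ilpum control. For Os01g0711400 they were 51.6% in Ilpum control and 54.8% in NIL control. For Os03g0738400 they were 75.5%, 51.7%, 75.7% and 43.4% without and with GRH in Ilpum and then in NIL. For Os02g0101500 they were 84.8%, 89.7% and 84.7% in Ilpum control, NIL control and NIL GRH. Quantile normalization covered only genes above 0 in all 4 libraries, 12172 of the 18575 compared genes. Why values moved between alternatives was not tested. Missing replicate spread and the depth of the GRH libraries, 894661 and 1170099 reads, limit the precision.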
